A study of Mus musculus with 10 samples.

Results

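The genes described here are 9 members of the coagulation and plasminogen system, F3, Procr, Thbd, Tfpi, Plau, Plaur, Plat, Thbs1 and Kng2, matched by symbol among the 31053 gene identifiers of the count matrices. The list was chosen with earlier results of these data known. Its counts and medians set beside those of all genes therefore describe it and are not a test of the set. The 9 genes were followed through 10 droplet-based single-cell RNA-seq libraries of EpCAM+ epithelial cells sorted from mouse distal lung, in 6 groups. All mice were 8-week-old adults of both sexes that carried Sftpc-CreERT2, a Cre recombinase driven by the surfactant protein C promoter of alveolar type 2 (AT2) cells, and all received 3 doses of tamoxifen at 0.2 mg per g body weight. In Sftpc-CreERT2; R26R-Confetti mice (Confetti, 1 RFP and 1 YFP library) both colours mark wildtype cells. In Sftpc-CreERT2; Red2Kras mice (Red2Kras) RFP+ cells are mutant and YFP+ cells are wildtype, and each colour has 2 libraries at 4 days and 2 at 2 weeks after induction. The labels give no time for Confetti, which the methods of the study place at 2 weeks, so the 4 days groups also differ from Confetti in time. Each library pooled at least 2 lungs, and no label says which lungs, so p-values measure the spread between these pools only. Cells were sorted by their colour, which stands for genotype here and does not select cell state.

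Coagulation starts when tissue factor, the product of F3, binds factor VII on a cell surface, and tissue factor pathway inhibitor (Tfpi) shuts this complex down. Thrombomodulin (Thbd) and the endothelial protein C receptor (Procr) instead turn thrombin towards the activation of protein C, an anticoagulant. Fibrin is removed by plasmin, which the proteases urokinase (Plau) and tissue plasminogen activator (Plat) cut from plasminogen, and the urokinase receptor (Plaur) holds urokinase at the cell surface. Thrombospondin-1 (Thbs1) is a secreted matrix protein that can activate latent TGF-beta, and Kng2 encodes a kininogen, the precursor of bradykinin. In the lung, alveolar epithelium is known to carry tissue factor and the urokinase system, and fibrin in the airspace is a mark of injury.

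All 9 genes are protein coding in GENCODE M21 (GRCm38). F3 lies on chr3:121723537-121735048 (plus strand), Plaur on chr7:24462484-24475968 (plus), Plau on chr14:20836660-20843385 (plus) and Plat on chr8:22757727-22782844 (plus). Chromosome 2 holds Procr at chr2:155751117-155755471 (plus), Thbs1 at chr2:118111876-118127133 (plus), Thbd at chr2:148404466-148408188 (minus) and Tfpi at chr2:84432855-84476775 (minus). Kng2 lies on chr16:22985854-23029482 (minus). It has a near-identical neighbour, Kng1, so reads could be split between the pair and Kng2 counts are uncertain to that extent. Kng2 also overlaps Gm6493 on the same strand, and Thbs1 overlaps Gm29233 on the opposite strand.

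The upstream sequences of F3, Procr and Plaur are shown because these 3 genes were often counted in the same mutant cells at 2 weeks and each holds the AP-1 letters TGANTCA, searched on both strands and printed in capitals. The sequences are from RefSeq (GRCm38.p6), whose promoter table had entries for 5 of the 9 genes, and are written 5′ to 3′ on the gene's strand. The F3 window is chr3:121723287-121723536 and the Plaur window chr7:24462233-24462482. The Procr window is chr2:155750967-155751116, where 150 bases remained after bases inside the annotated gene were left out.
F3: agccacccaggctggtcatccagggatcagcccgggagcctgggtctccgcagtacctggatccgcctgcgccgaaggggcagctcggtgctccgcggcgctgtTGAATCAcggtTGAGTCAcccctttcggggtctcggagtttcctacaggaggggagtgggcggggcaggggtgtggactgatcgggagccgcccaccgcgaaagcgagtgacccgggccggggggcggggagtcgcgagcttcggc
Procr: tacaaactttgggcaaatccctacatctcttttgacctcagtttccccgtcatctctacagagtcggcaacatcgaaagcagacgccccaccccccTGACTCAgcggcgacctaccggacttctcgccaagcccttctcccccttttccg
Plaur: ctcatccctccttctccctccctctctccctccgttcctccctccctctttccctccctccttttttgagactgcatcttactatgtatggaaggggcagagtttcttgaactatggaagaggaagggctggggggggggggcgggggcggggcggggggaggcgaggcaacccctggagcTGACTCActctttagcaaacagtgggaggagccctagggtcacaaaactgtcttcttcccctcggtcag
F3 held TGAATCA from 146 to 140 and TGAGTCA from 135 to 129 bases before the RefSeq start. Procr held TGACTCA from 154 to 148 bases before its start and Plaur from 69 to 63 bases before its start. Of the 32851 promoter entries in the table, 2217 (6.75%) held TGANTCA within the 250 bases before the start. The search ran on all 250 bases before each start, also where these lie inside the annotated gene. Tfpi, with 234 bases of an entry outside the gene, and Kng2, with 0, held no such letters. The NF-kB motif, held by 1.41% of all entries, and the TEAD letters GGAATG, held by 12.6%, occurred in none of the 5 genes with entries. The EGR1 letters GCGNGGGCG, held by 4.70% of entries, occurred in Plaur from 109 to 101 bases before the start. A match to letters is a description and not a bound site, and a missing match says only that the letters are not in the window.

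The 10 libraries held 42012 barcodes, of which 32698 passed the quality filters and 29580 were alveolar after immune, endothelial, mesenchymal and ciliated clusters were discarded. Discarded cells made up 3.18% to 42.2% of a library, and alveolar UMIs totalled between 7177788 and 69764195. Alveolar cells had median UMIs of 15813 and 13385 in the 2 weeks RFP libraries and 3251 to 6714 in the others. Replicates differed by more than counting noise in all 4 Red2Kras groups, and Confetti has 1 library per colour. The 4 days RFP library 1 and 4 days YFP library 1 were the Red2Kras libraries nearest to Confetti in their clusters. All 8 AT2 markers were detected in every library's alveolar cells. Cells with only Xist or only Y-linked UMIs showed that pools differed in sex, with a share of Xist-only cells of 100% in Confetti and at most 0.535% in every library numbered 2. This moves with the replicate number and with Confetti, and its part in the results was not tested.

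Tissue factor (F3), the trigger of coagulation, was highest in the mutant cells of 2 weeks. The levels are UMIs summed over a library's alveolar cells, given as CPM (UMIs of a gene scaled to a common library total) after TMM scaling, which corrects for library composition. F3 stood at 12.8 CPM in Confetti RFP and 12.1 in Confetti YFP, at 11.5 and 7.34 in 4 days YFP, and at 16.0 and 71.1 in 2 weeks YFP (library 1 and 2). It stood at 19.0 and 169 CPM in 4 days RFP and at 202 and 535 in 2 weeks RFP. Both RFP libraries lay above both YFP libraries of the same time, and 4 days RFP library 1 was close to Confetti whereas library 2 was not. The group mean was 12.4 ± 0.52 CPM (SD, n = 2) over the Confetti libraries, 94.0 ± 106 in 4 days RFP and 368 ± 235 in 2 weeks RFP (n = 2 each). The Confetti SD is over the 2 colours and not over replicates of a group.

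The anticoagulant receptors were also highest in RFP libraries of Red2Kras mice. Procr, the protein C receptor, stood at 0.186 CPM in Confetti RFP, 0.404 in Confetti YFP, 0.290 and 0.120 for 4 days YFP and 5.40 and 71.9 for 2 weeks YFP. It stood at 1.92 and 32.3 CPM in 4 days RFP and at 52.6 and 307 in 2 weeks RFP. The 2 weeks YFP library 2 thus lay above 2 weeks RFP library 1, so the colours overlapped at 2 weeks. Thbd, which encodes thrombomodulin, was counted with 0 UMIs in Confetti RFP, 4 in Confetti YFP, and 1 and 2 for YFP cells at each time. It reached 4 and 37 UMIs in 4 days RFP (0.208 and 4.42 CPM) and 130 and 53 UMIs in 2 weeks RFP (1.73 and 1.33 CPM). Tfpi, the inhibitor of tissue factor, had 8 UMIs over all 29580 alveolar cells and at most 4 in any library. It did not pass the filter on low counts, which Thbd passed only through RFP libraries, and 8 of the 9 genes were tested.

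In the plasminogen system, the urokinase receptor and both activators were each highest in a mutant library. Plaur stood at 0.870 CPM in Confetti RFP, 1.95 in Confetti YFP, 1.26 and 2.17 for 4 days YFP and 6.99 and 47.8 for 2 weeks YFP. It stood at 16.2 and 201 CPM in 4 days RFP and at 136 and 179 in 2 weeks RFP, so the lowest mutant library of each time lay above the highest YFP library of that time. Plau stood at 0.186 and 0.202 CPM in Confetti, 0.097 and 0.541 in 4 days YFP, 0.660 and 1.15 in 2 weeks YFP, 0.780 and 19.8 in 4 days RFP and 9.94 and 4.50 in 2 weeks RFP. Plat was listed with 1 and 0 UMIs in Confetti and 0 and 20 in 4 days YFP, and stood at 1.40 and 2.81 CPM in 2 weeks YFP. It stood at 0.104 and 21.5 CPM in 4 days RFP and at 27.3 and 10.1 in 2 weeks RFP. Both activators were highest in 4 days RFP library 2 and 2 weeks RFP library 1, whereas Procr and F3 were highest in 2 weeks RFP library 2.

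Thbs1 and Kng2 departed from this pattern. Thbs1 stood at 47.2 and 59.9 CPM in Confetti, 77.9 and 45.2 in 4 days YFP, 139 and 108 in 4 days RFP, 156 and 32.0 in 2 weeks YFP and 156 and 43.2 in 2 weeks RFP. It differed more between replicate numbers than between colours at 2 weeks, where both libraries numbered 1 lay above both numbered 2. Kng2 stood at 1.30 and 2.02 CPM in Confetti, 1.84 and 5.17 in 4 days YFP, 3.12 and 5.61 in 4 days RFP, 5.78 and 35.1 in 2 weeks YFP and 36.2 and 179.6 in 2 weeks RFP. Kng2 was thus low at 4 days in both colours, and its lower 2 weeks RFP library lay close to the higher 2 weeks YFP library. In library sums, more cells with a gene and more RNA per cell cannot be told apart.

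**Figure D1:**
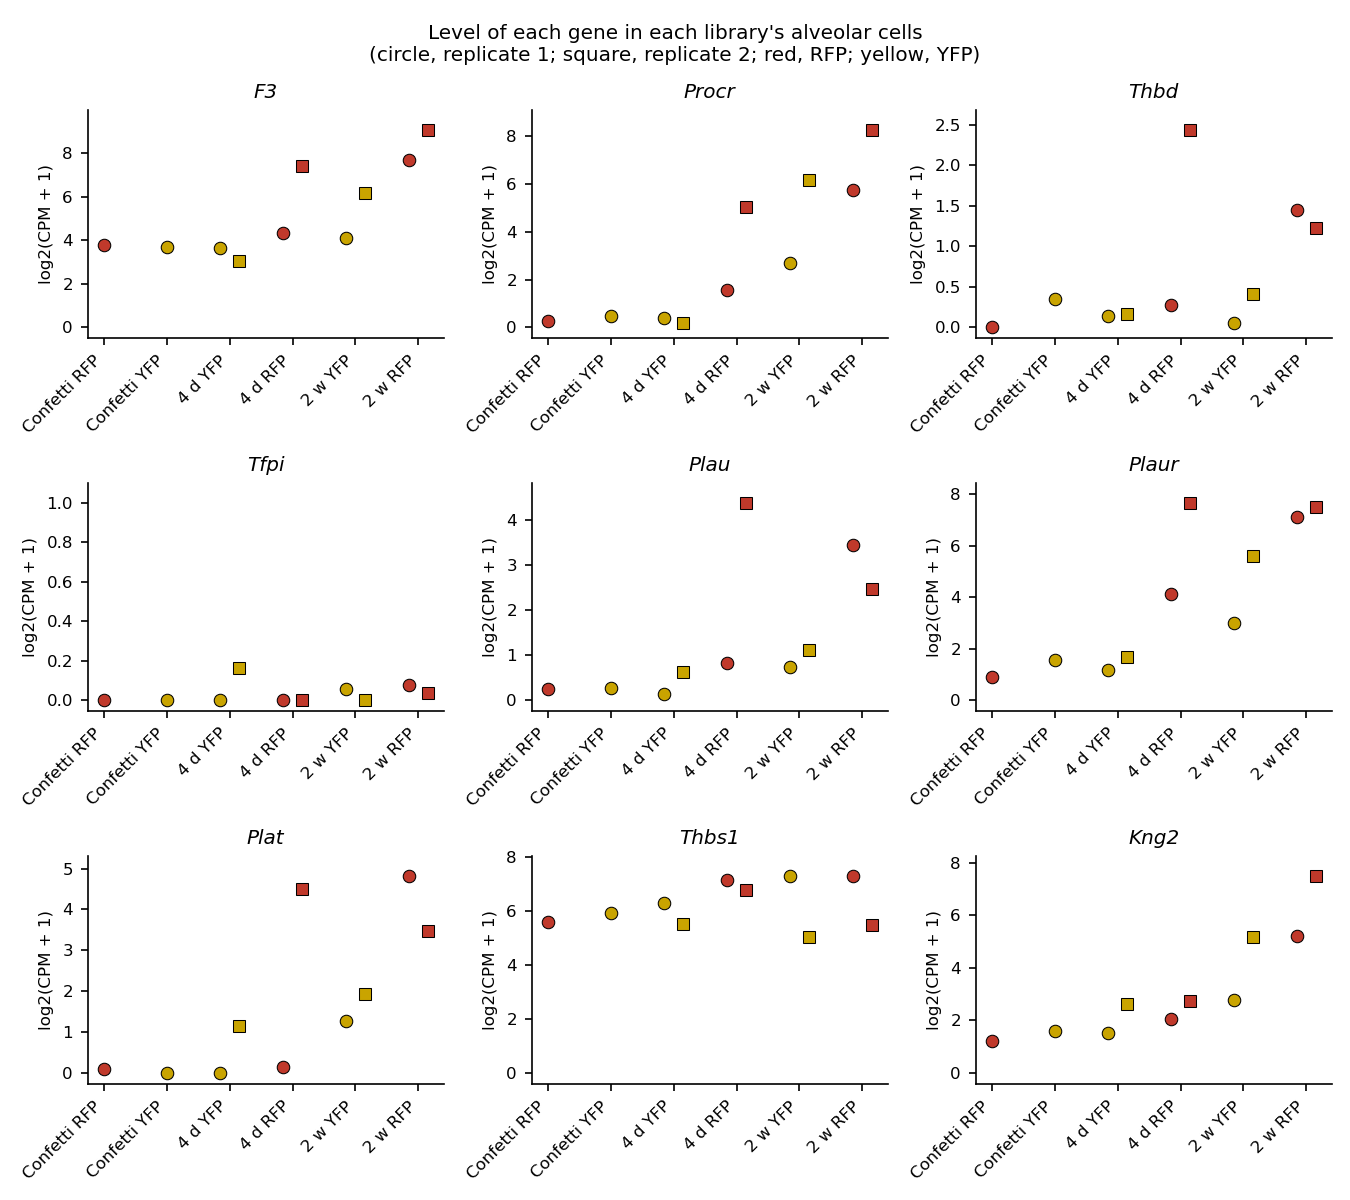
Level of each gene as log2(TMM-scaled CPM + 1) on the vertical axis for each of the 10 libraries, grouped on the horizontal axis, with circles for replicate 1 and squares for replicate 2, red for RFP and yellow for YFP. F3 ran from 7.34 to 535 CPM and Plaur from 0.870 to 201 CPM with the RFP libraries of Red2Kras above the YFP libraries of the same time, while Thbs1 separated by replicate number at 2 weeks and Tfpi stayed near 0.

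Mutant and wildtype cells of Red2Kras mice were compared at each time to ask which genes differ between them. At 4 days, 0 of the 8 genes tested passed the threshold (edgeR quasi-likelihood test, Benjamini-Hochberg adjusted p under 0.05) beside 0% of the 13763 genes tested. The estimates were large and loose: Plaur 5.95 ± 1.36 (log2 fold change ± SE, adjusted p = 0.810), Procr 6.43 ± 2.11, Plau 4.83 ± 1.43 and F3 3.32 ± 1.08. At an unadjusted p under 0.05 the count was 5 of 8 genes, against 5.66% of all genes. DESeq2 called 3 genes (Procr, Plau and Plaur) beside 0.827% of genes, and edgeR called 2 (Plau and Plaur) without 4 days RFP library 1, beside 1.42% of genes. With RFP and YFP libraries of the same number treated as a pair, edgeR called 4 genes beside 1.04% of the 13197 genes tested: Procr rose by 6.52 ± 0.85 (adjusted p = 0.0153), Plau by 4.93 ± 0.63 (adjusted p = 0.0153), Plaur by 5.60 ± 0.81 (adjusted p = 0.0212) and Plat by 4.12 ± 0.70 (adjusted p = 0.0395). F3 did not pass in the paired fit (2.65 ± 0.80, adjusted p = 0.198), nor did Thbs1 (1.03 ± 0.21, adjusted p = 0.0719) or Kng2 (0.37 ± 0.27, adjusted p = 0.551). The Plat call rests on 4 days RFP library 2, which held 180 of the 182 RFP UMIs. That library also held most RFP UMIs of the other called genes. It had 166 of Plau, 271 of Procr and 1684 of Plaur, against 15, 37 and 311 in library 1. Thbd had 41 UMIs in RFP against 3 in YFP, a ratio of 14.3 (95% counting interval 4.57 to 72.4), and 37 of the 41 came from 4 days RFP library 2.

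At 2 weeks, 0 of the 8 genes passed in the fit of 6 groups, beside 0% of 13763 genes, with 4 of 8 at an unadjusted p under 0.05 against 16.4% of all genes. DESeq2 also called 0 of the 8, beside 3.86% of genes. The estimates were 3.097 ± 1.06 for F3 (adjusted p = 0.242), 2.44 ± 0.97 for Kng2 (adjusted p = 0.280), 2.24 ± 1.41 for Procr and 2.56 ± 1.13 for Plaur. In the paired fit 7 of 8 genes passed, beside 16.3% of all genes. Kng2 rose by 2.47 ± 0.22 (adjusted p = 0.00324), Plau by 3.22 ± 0.49 (adjusted p = 0.0104), Plat by 3.28 ± 0.51 (adjusted p = 0.0110) and Procr by 2.64 ± 0.43 (adjusted p = 0.0122). Plaur rose by 3.05 ± 0.63 (adjusted p = 0.0197), F3 by 3.26 ± 0.70 (adjusted p = 0.0217) and Thbd by 3.85 ± 0.91 (adjusted p = 0.0275). Thbs1 was the exception at 0.17 ± 0.21 (adjusted p = 0.598). Thbd had 183 UMIs in RFP against 3 in YFP, a ratio of 18.5 (6.22 to 90.4). Since Thbd passed the filter on low counts only through RFP libraries, its call rests on the values that let it in. With all filtered cells summed, its log2 fold change turned to -1.01.

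Over both times, with time as a term and 8 libraries, 0 of 7 genes tested passed beside 0% of 12503 genes, and F3 came closest at 3.19 ± 0.72 (adjusted p = 0.0865), followed by Plau at 3.87 ± 0.96 (adjusted p = 0.0880) and Plaur at 4.08 ± 1.08 (adjusted p = 0.0976). The count was 5 of 7 at an unadjusted p under 0.05, against 21.4% of all genes, and DESeq2 called 4 (F3, Procr, Plau and Plaur) beside 9.55% of genes. With the replicate number as a block edgeR called the same 4 beside 7.03% of genes. Without 4 days RFP library 1 edgeR called 5 (F3, Thbd, Plau, Plaur and Plat) beside 11.3% of genes. In the paired fit 6 of 7 passed, all but Thbs1, beside 16% of genes. Whether the difference between colours itself changed from 4 days to 2 weeks was tested as an interaction, and 0 of 8 genes passed, beside 0% of genes. Procr (-4.19 ± 2.59) and Plaur (-3.39 ± 1.63) had negative estimates there, an adjusted p of 1.00 each by edgeR, with 0 of 8 genes at an unadjusted p under 0.05 and 0 called by DESeq2. In the paired fit 0 of 8 passed beside 0% of genes, with 4 at an unadjusted p under 0.05 against 7.99% of all genes. Of these Kng2 was positive (2.09 ± 0.34) and Procr (-3.88 ± 1.04), Plaur (-2.55 ± 0.99) and Thbs1 (-0.86 ± 0.30) were negative, with adjusted p of at least 0.599. The median log2 fold change of the tested genes was 4.11 at 4 days, 2.83 at 2 weeks and 3.47 over both times, beside -0.01, 0.01 and -0.03 over all genes.

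**Figure D2:**
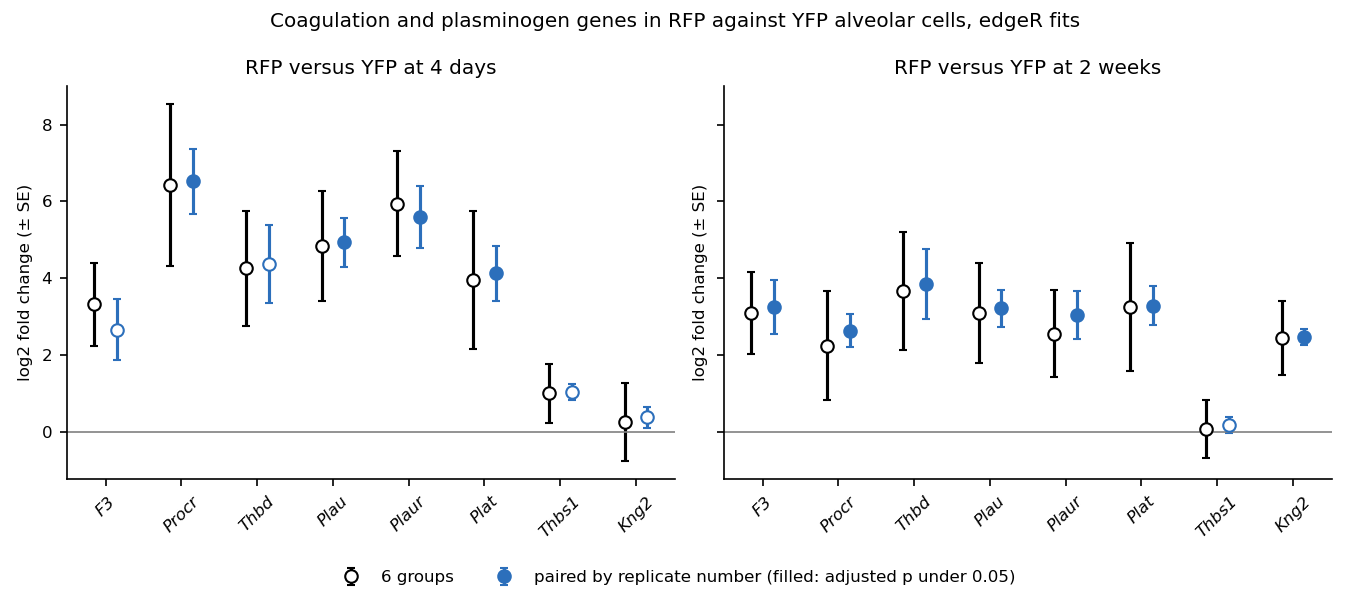
Log2 fold change of RFP against YFP (vertical axis, bars are ± SE) for the 8 genes tested at 4 days (left) and 2 weeks (right), from the fit of 6 groups (black) and the fit paired by replicate number (blue, filled where the adjusted p is under 0.05). The estimates of both fits lie close together while the paired errors are smaller, and 4 genes at 4 days and 7 at 2 weeks are filled.

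Mutant cells were then set against the Confetti libraries, which hold no mutant cells. At 2 weeks 3 of the 8 genes rose, beside 5.3% of 13763 genes (730 called, 468 higher and 262 lower): Procr by 9.32 ± 2.10 (adjusted p = 0.0465), Plaur by 6.91 ± 1.42 (adjusted p = 0.0444) and Kng2 by 6.05 ± 1.17 (adjusted p = 0.0423). Procr rested on 16140 UMIs against 9, a ratio of 476 (251 to 1042, counting error only). F3 missed the threshold at 4.89 ± 1.15 (adjusted p = 0.0501), as did Plau at 5.18 ± 1.495 (adjusted p = 0.0691), and Thbs1 stood at 0.90 ± 0.76 (adjusted p = 0.438). Plat had 2448 UMIs against 1, a ratio of 650.2 (117 to 25693), and Thbd 183 against 4, a ratio of 12.2 (4.67 to 45.1). DESeq2 called 7 of 8 beside 16.9% of genes. The count of 3 rests on single libraries. Without either 4 days RFP library it was 7, beside 13.9% of all genes each time. It was 2 without 2 weeks YFP library 2 (1.45%), 1 without 2 weeks RFP library 1 (1.47%) and 1 without 2 weeks YFP library 1 (0.727%). It was 0 without Confetti RFP (0.00723%), Confetti YFP (0.00726%), 4 days YFP library 1 (0.311%) or 2 (0.286%) or 2 weeks RFP library 2 (0.0369%), so the calls over all genes moved with it.

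In the remaining comparisons edgeR called none of the genes with all libraries and its filter on low counts. For 4 days RFP against Confetti, 0 of 8 passed in edgeR beside 0% of genes, with 6 of 8 at an unadjusted p under 0.05 against 8.78% of all genes, and DESeq2 called 3 (Procr, Plau and Plaur) beside 2% of genes. The estimates were 6.37 ± 1.40 for Plaur, 5.90 ± 1.96 for Procr, 5.66 ± 1.52 for Plau and 2.91 ± 1.06 for F3, with adjusted p from 0.465 to 0.542. Without 4 days RFP library 1 edgeR called 4 (Thbd, Plau, Plaur and Plat) beside 2.39% of genes. Wildtype YFP cells of 2 weeks were set against Confetti to ask whether neighbours of mutant cells differ from cells of lungs without mutants, and 0 of 8 passed beside 0.0436% of genes, with 3 at an unadjusted p under 0.05 against 5.61% of all genes. Procr was at 7.08 ± 2.00, Plaur at 4.36 ± 1.31 and Kng2 at 3.61 ± 1.08, each with an adjusted p of 0.766, and DESeq2 called Procr alone beside 0.863% of genes. For 4 days YFP against Confetti 0 of 8 passed beside 0.0291% of genes, with 0 at an unadjusted p under 0.05 against 1.82% of all genes and 0 by DESeq2 beside 0.0872% of genes.

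Between 4 days and 2 weeks, Kng2 had the largest estimate in mutant cells at 4.66 ± 1.08 (unadjusted p = 0.00244, adjusted p = 0.411), beside 3.42 ± 1.49 for Procr and 1.98 ± 1.01 for F3. In this comparison 0 of 8 genes passed in edgeR beside 0% of genes, with 2 at an unadjusted p under 0.05 against 11.1% of all genes, and DESeq2 called Kng2 alone beside 1.03% of genes. In YFP cells 0 of 8 passed beside 0% of genes, with 3 at an unadjusted p under 0.05 against 1.66% of all genes, and DESeq2 called Procr alone beside 0.155% of genes. The YFP estimates were 7.61 ± 2.12 for Procr, 3.93 ± 1.28 for Plaur and 2.47 ± 1.01 for Kng2, with an adjusted p of 1.00 each.

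These counts depended on the filter on low counts. With no filter, edgeR called 6 of the genes for RFP against YFP at 4 days (2.38% of all genes), 7 at 2 weeks (6.61%), 7 over both times (9.42%) and 3 for the change of that difference over time (0.24%). Against Confetti it then called 8 in 2 weeks RFP (15.5%), 8 in 4 days RFP (3.9%), 5 in 2 weeks YFP (2.54%) and 1 in 4 days YFP (0.643%), and between times 3 in RFP (3.35%) and 4 in YFP (0.906%). With cells thinned to 2000 UMIs and the filter kept, it called 1 over both times (0.396%) and 5 in 2 weeks RFP against Confetti (4.24%), and 0 in 4 days RFP (0.04%), 2 weeks YFP (0.032%) and 4 days YFP (0.032%) against Confetti.

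The wider pathway was read from 7 lists of further genes, read in the unpaired edgeR fits. Calls among them are given for 2 weeks RFP against Confetti, where 5.3% of all genes were called, since no other comparison called more than 6 genes in all. Among anticoagulants 2 of 5 tested rose: Pros1, which encodes the cofactor protein S, by 1.65 ± 0.32 (adjusted p = 0.0422) and Anxa5, a phospholipid-binding annexin, by 1.69 ± 0.37 (adjusted p = 0.0446). Pros1 went from 3.73 and 3.84 CPM in Confetti to 10.1 and 13.7 in 2 weeks RFP. Of 3 protease-activated receptors tested 1 rose, the thrombin receptor F2r, by 3.11 ± 0.63 (adjusted p = 0.0443), from 6.27 and 6.00 CPM in Confetti to 59.8 and 46.5 in 2 weeks RFP. F2rl2 had 61 UMIs in 2 weeks RFP and 0 in Confetti, at least 5.40-fold higher against a floor of 3 UMIs over the group.

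Among genes that bind, inhibit or activate plasminogen 1 of 9 tested rose. This was Serpinb2, the urokinase inhibitor PAI-2, with 0 UMIs in both Confetti libraries and 1237 and 699 in 2 weeks RFP, at least 171-fold higher against the same floor (adjusted p = 0.0423). Eno1, a glycolytic enzyme that can act as a plasminogen receptor, missed the threshold at 2.42 (adjusted p = 0.0506). In the kinin list 1 of 2 tested rose and 1 fell. Ace, the enzyme that degrades bradykinin, rose by 3.86 ± 0.73 (adjusted p = 0.0417), and Cpn1, a carboxypeptidase that trims kinins, fell by 1.88 ± 0.30 (adjusted p = 0.0354), from 55.6 and 54.0 CPM in Confetti to 16.6 and 13.2 in 2 weeks RFP. None of 6 clotting factors tested of 15 listed passed, and F7, the partner of tissue factor, stood at -1.35 (adjusted p = 0.143). None of 3 thrombospondins and receptors passed (Thbs3 -1.36, adjusted p = 0.0691), nor did any of 4 genes of the vitamin K cycle (Ggcx -1.16, adjusted p = 0.0600). These calls also moved with the processing: over 19 alternatives Ace passed in 8 (lowest estimate -0.027, with every barcode), Pros1 in 8, Serpinb2 in 8, Anxa5 in 9, F2r in 10 and Cpn1 in 11. List medians of the log2 fold change were -0.89 for clotting factors, 1.65 for anticoagulants and 0.86 for plasminogen genes, beside 5.69 for the 8 tested coagulation and plasminogen genes above and 0.03 over all genes.

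The genes whose library levels ran most alike with each gene were taken by Pearson's r of log2(CPM + 1) over the 10 libraries, among genes of at least 10 CPM on average, as a description without a test, since the points share cell makeup and depth. For F3 these were Pdlim5 (r = 0.99), Ctsl and Nt5e, for Procr Pthlh (r = 0.99), Ptprn and Cda, and for Plaur Cldn4 (r = 0.99), Itga2 and Msln. For Plau they were Ndrg1 (r = 0.99) and Odc1, for Thbd Ppfibp1 (r = 0.99) and Rap2b, and for Plat Fn1 (r = 0.99), Gsr and Ecm1. For Kng2 they were Tspan31 (r = 0.98), Tradd and Rab11a. The most alike gene to Thbs1 was Ifrd1 at r = 0.92, the lowest of the 8.

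Single cells show how many carried each gene. All shares here are of cells thinned to 2000 UMIs so that depth is equal, with exact Clopper-Pearson 95% intervals that cover counting error only. F3 was counted in 2.16% (1.72% to 2.67%) of Confetti RFP cells and 2.55% of Confetti YFP cells, in 2.13% and 11.3% in 4 days RFP and in 14.0% and 23.4% in 2 weeks RFP, against 2.02% and 0.545% of 4 days YFP cells and 1.54% and 2.18% of 2 weeks YFP cells. Among discarded cells F3 was counted in 0.455% of immune (median 6939 UMIs before thinning), 1.32% of endothelial (3892.5), 14.5% of mesenchymal (3642) and 17.1% (12.7% to 22.3%) of ciliated cells (5766), so the 2 weeks RFP shares were near or above those of ciliated cells. Among alveolar libraries, only 4 days RFP library 2 and both 2 weeks RFP libraries lay above the Confetti shares of F3 by more than counting error. Without thinning the share was 32.7% and 37.7% in 2 weeks RFP and 4.73% and 4.13% in Confetti.

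Plaur was counted in 0.158% and 0.434% of Confetti cells, 1.13% and 21.5% in 4 days RFP, 14.8% and 19.1% in 2 weeks RFP, 0.178% and 0.0681% of 4 days YFP cells and 0.618% and 2.08% of 2 weeks YFP cells. Discarded immune cells, which express the receptor, gave 46.5% and ciliated cells 1.95%, so the YFP shares did not exceed the ciliated share beyond counting error. Procr was counted in 0.0790% and 0.0511% of Confetti cells, 0.243% and 2.03% in 4 days RFP and 5.22% and 17.8% in 2 weeks RFP, against 0.658% in discarded endothelial, 2.32% in immune and 4.67% in ciliated cells. Of the alveolar libraries, 2 weeks RFP library 2 alone lay above the ciliated share by more than counting error. Kng2 was counted in 5.56% and 24.3% of 2 weeks RFP cells, 3.47% of 2 weeks YFP library 2 and at most 1.05% of cells in the other libraries, against 0.207% in discarded immune cells.

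The less often counted activators gave shares of at most 2.94% (Plau, 4 days RFP library 2) and 2.47% (Plat, 2 weeks RFP library 1), with 0.867% and 0.795% in 2 weeks RFP library 2. Over all UMIs, Plau stood at 11.6 CPM in discarded immune and 9.39 in endothelial cells, against 5.06 in alveolar cells of all libraries. Plat stood at 0.443, 73.3 and 11.9 CPM in the same order. Thbs1 was counted in 6.69% and 8.28% of Confetti cells and in 21.0% and 7.30% of 2 weeks RFP cells, against 18.3% and 3.67% in 2 weeks YFP. The spread of Thbs1 between replicate numbers appeared in single cells of both colours as well. A cell with UMIs of at least 2 of the 9 genes was rare in Confetti (0.421% and 0.843%) and in YFP cells (0.170% to 2.58%), and made up 15.3% and 24.2% of 2 weeks RFP cells and 1.32% and 10.8% of 4 days RFP cells. UMIs of at least 4 of the genes occurred in 53 and 52 cells of the 2 weeks RFP libraries.

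Within a library, the procoagulant, anticoagulant and plasminogen genes were counted in the same cells more often than their shares would give. In 2 weeks RFP library 1, F3 and Procr were both present in 130 cells where 29.5 were expected, a ratio of 4.40, and in library 2 in 324 cells where 115 were expected, a ratio of 2.81. The ratio of F3 and Plaur was 3.39 and 2.51, that of F3 and Plat 4.72 and 3.49, and that of Procr and Plaur 3.37 and 2.46. Plau with Plaur, the protease and its receptor, had a ratio of 3.28 in library 1 and 2.55 in 4 days RFP library 2. Kng2 differed between the libraries. In 2 weeks RFP library 2 its ratio was 0.44 with F3, 0.52 with Procr, 0.69 with Plaur and 0.37 with Plat. In library 1 it was 0.92, 1.11, 1.17 and 0.54 in the same order, and at 1000 UMIs per cell the ratio with F3 was 1.47 in library 1 and 0.28 in library 2. Thbs1 lay between 0.69 and 1.38 in library 1 and between 0.77 and 1.44 in library 2. Among Confetti cells the pair with enough expected cells was F3 and Thbs1, at 2.37 and 3.02. The ratios describe these libraries and are not tests, since cells of a library share their source.

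**Figure D3:**
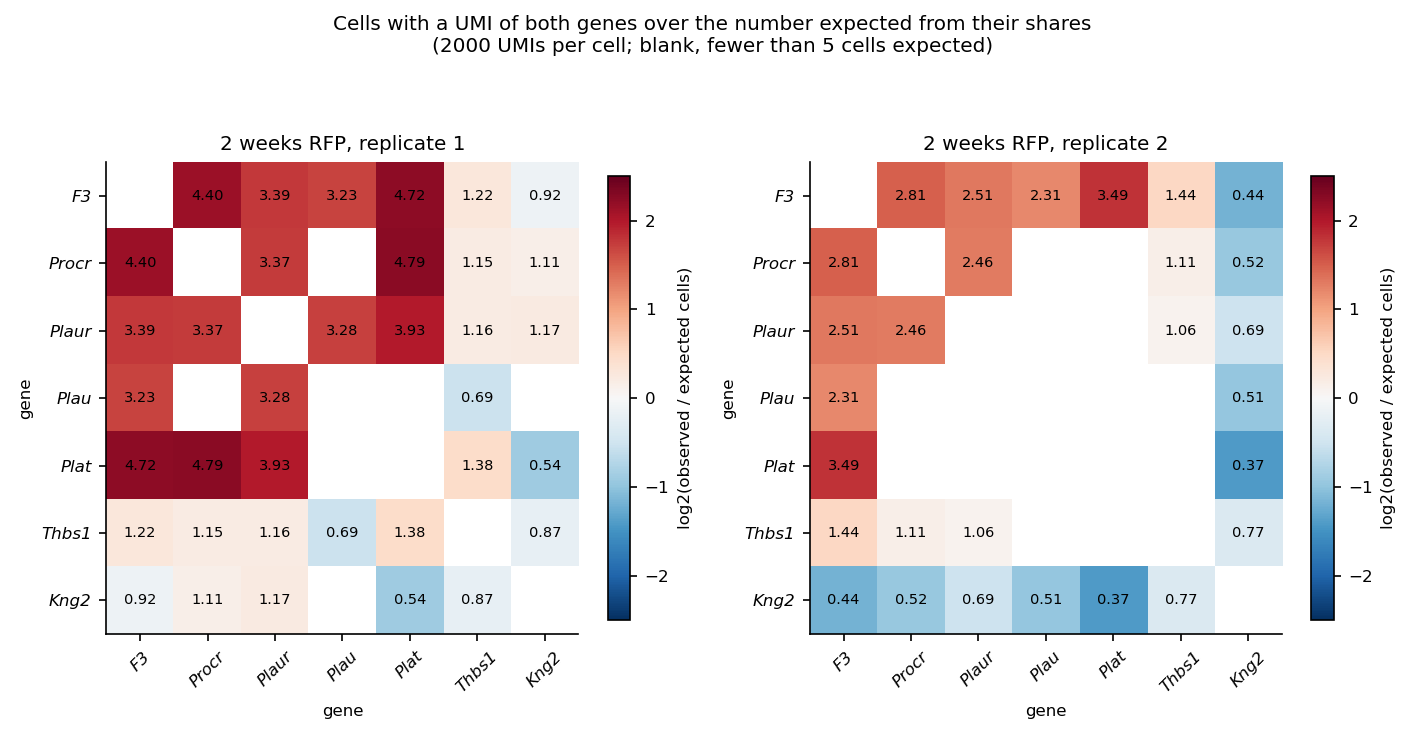
Cells with UMIs of both genes over the number expected from the 2 shares, printed in each square and coloured on a log2 scale, for 2 weeks RFP library 1 (left) and 2 (right) at 2000 UMIs per cell, blank where fewer than 5 cells were expected. F3, Procr, Plaur, Plau and Plat form a block from 2.31 to 4.79, Kng2 is at or under 1.17 and Thbs1 is near 1.

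These pairs followed the clusters that the cells fell into. Libraries were clustered together without integration, so clusters can also follow library, replicate number and sex of the pool. Clusters were made without the 9 genes among the variable genes. The marker lists that named them hold none of the 9. Clusters that no list named are called by their leading genes, which can include the 9, as Kng2 below. The cells called DATP-like, after markers of damage-associated transient progenitors such as Krt8, Cldn4 and Sprr1a, came from 2 clusters. They made up 524 cells (36.6%) of 4 days RFP library 2, 550 (13.6%) of 2 weeks RFP library 1 and 1094 (39.4%) of 2 weeks RFP library 2, against 40 cells in 4 days RFP library 1, 11 and 28 in 2 weeks YFP libraries 1 and 2, 1 and 7 in 4 days YFP libraries 1 and 2 and 1 in each Confetti library. These counts are for the resolution of 0.8. At a resolution of 1.5, a cluster led by Thbs1 and Kcnk2 was named DATP as well. It had 255 cells in Confetti RFP and 231 in Confetti YFP. It had 353 in 4 days RFP library 1 and 99 in 4 days YFP library 1. The other DATP clusters, led by Procr and by Ndrg1, had 0 and 0 cells in Confetti RFP and 0 and 1 in Confetti YFP. At the resolution of 0.8, DATP-like cells of 4 days RFP library 2 held 97.4% of F3, 100% of Procr and 93.3% of Plaur UMIs. They also held 99.4% of Plau and 100% of Plat UMIs. In 2 weeks RFP library 2 they held 96.6% of F3, 96.6% of Procr, 80.6% of Plaur, 84.4% of Plau and 96.8% of Plat UMIs. In 2 weeks RFP library 1 the shares were 61.4%, 67.5%, 55.2%, 76.2% and 84.1% in the same order. In 4 days RFP library 1 they were 30.7%, 59.5%, 53.4%, 80% and 50%, where Plau had 15 and Plat 2 UMIs in all. They held a smaller part of Thbs1 (56.0%, 20.9% and 52.8% in 4 days RFP library 2 and 2 weeks RFP libraries 1 and 2) and little of Kng2 (2.13%, 4.02% and 15.2%).

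A cluster led by Gzme and Spp1 accounted for much of the rest in 2 weeks RFP library 1. It scored highest for the list named Cd177 mixed (Cd177, Cd38, Dlk1 and Ctse) but had none of these markers among its 10 leading genes and was left unnamed. Its 361 cells (8.91% of that library) held 31.5% of F3 and 38.0% of Kng2 UMIs. Plain CPM in it, over all UMIs of the cluster's cells, were 669 for F3, 391.6 for Plaur, 144 for Kng2 and 137 for Procr. A cluster led by Meg3 and Kng2 made up 1427 cells (51.4%) of 2 weeks RFP library 2 and held 75.3% of its Kng2 UMIs, at 270.5 CPM, against 10.8 CPM of F3. The same cluster had 107 cells in 2 weeks RFP library 1, with 156 CPM of Kng2 and 19.1 of F3. F3, Procr, Kng2 and Thbs1 were each among the 10 leading genes of a cluster (Thbs1 of the one led by Fosb and Atf3), and these values describe cells grouped by their own expression.

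**Figure D4:**
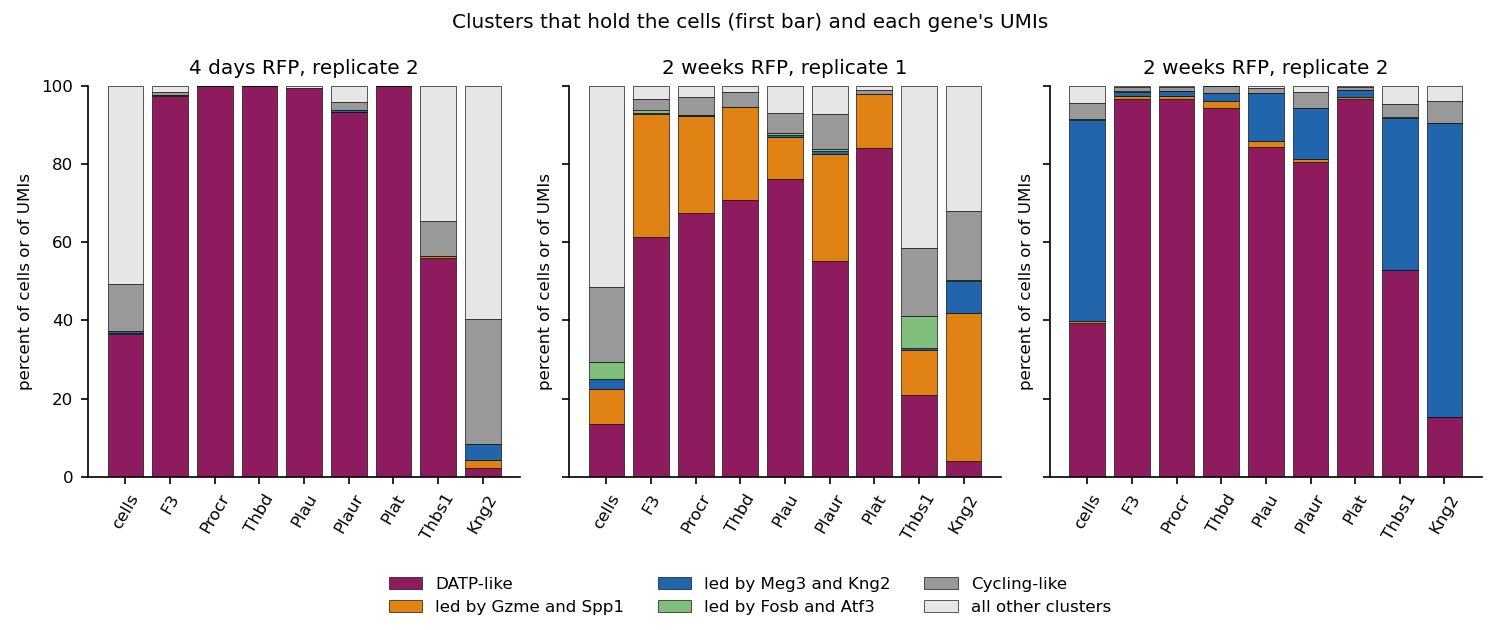
Percent of cells (first bar of each panel) and percent of each gene's UMIs (other bars) by cluster for 3 RFP libraries. DATP-like cells are 36.6%, 13.6% and 39.4% of the cells from left to right but hold 97.4%, 61.4% and 96.6% of F3 UMIs, whereas most Kng2 UMIs lie in other clusters.

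Inside DATP-like cells the genes differed between libraries. F3 stood at 426 CPM in 4 days RFP library 2, 875 in 2 weeks RFP library 1 and 1413 in library 2, and Procr at 83.6, 251 and 811. Plaur was nearly level at 485, 530.1 and 395 CPM. The mix of the 2 DATP-like clusters differed between these libraries, with 470 and 54, 431 and 119, and 364 and 730 cells of the first and second. The activators were lowest in 2 weeks RFP library 2, with Plau at 50.9, 53.4 and 10.4 and Plat at 55.6, 162 and 26.8 CPM. Thbd stood at 11.4, 8.66 and 3.44 CPM, Thbs1 at 156, 230 and 62.3, and Kng2 at 0.309, 10.2 and 74.9. At 2000 UMIs per cell F3 was counted in 28.7%, 50% and 54.9% of DATP-like cells and Plaur in 53.1%, 53.3% and 37.1%. The ratios of F3 with Procr and Plaur were closer to 1 here. They stood at 1.39 and 1.24 for Procr and at 1.20 and 1.32 for Plaur in the 2 weeks RFP libraries. F3 with Plat stood at 1.41 and 1.64 there and at 2.98 in 4 days RFP library 2, and Plaur with Plat at 2.02 in 2 weeks RFP library 2. Other pairs did not move towards 1. F3 with Thbs1 was 2.00 over all cells and 1.97 in DATP-like cells of 4 days RFP library 2. Plau with Thbs1 went from 0.69 to 0.28 in 2 weeks RFP library 1.

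**Figure D5:**
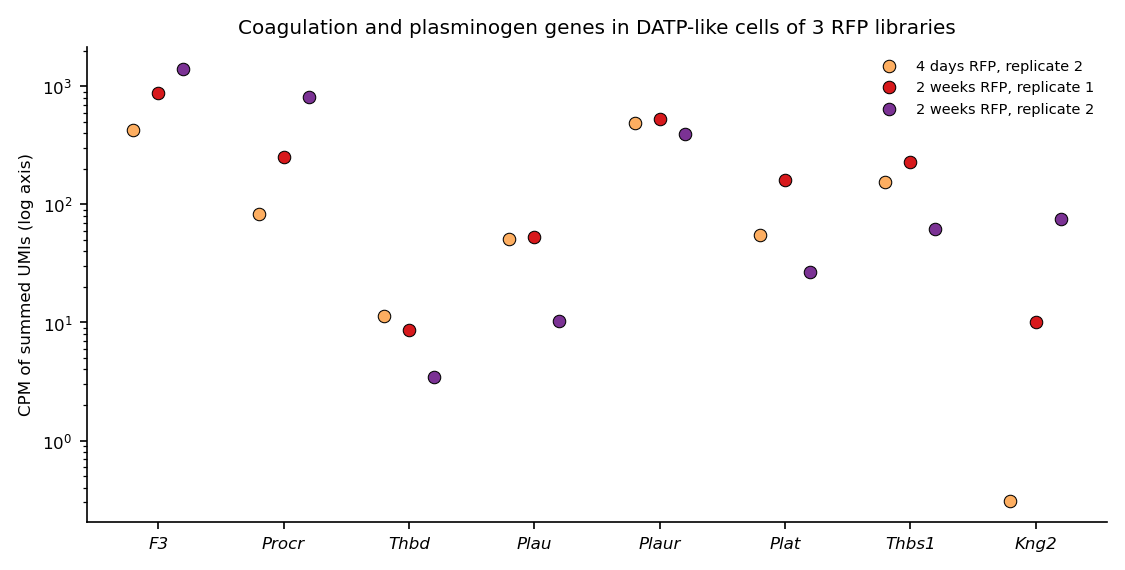
Plain CPM of each gene (vertical log axis) in the DATP-like cells of 4 days RFP library 2 and 2 weeks RFP libraries 1 and 2, 1 point per library. F3 and Procr are highest in 2 weeks RFP library 2 (1413 and 811 CPM), Plau and Plat are lowest there (10.4 and 26.8), and Plaur varies least (395 to 530.1).

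The pair of clusters behind the DATP-like name differed from each other. The AT1 markers Hopx and Akap5 were among the 10 leading genes of the second, beside the DATP markers Krt19 and Cldn4, and at a resolution of 1.5 a cluster led by Hopx and Akap5 was named AT1-like, with 389 of its 427 cells in 2 weeks RFP library 2. The first, led by Aldh1a3 and Hmga2, carried most of the activators, with Plat at 62.9, 205 and 59.4 CPM in 4 days RFP library 2 and 2 weeks RFP libraries 1 and 2, against 0, 3.50 and 3.87 in the second, led by Hopx and Procr. Plau stood at 54.2, 66.0 and 20.6 CPM in the first against 26.3, 7.10 and 3.23 in the second. F3 was 1015 and 2498 CPM in the first and 359 and 649 in the second in the 2 weeks RFP libraries, but 399.7 against 621 in 4 days RFP library 2, where the second had 54 cells. Thbs1 and Kng2 leaned to the second cluster, with Thbs1 at 358 and 88.3 CPM against 195 and 25.5, and Kng2 at 32.7 and 112 against 4.11 and 22.5 in the 2 weeks RFP libraries.

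In AT2-like cells F3 ranged from 9.74 to 24.1 CPM over the 7 libraries with at least 50 such cells, with 12.5 in Confetti RFP, 13.9 in Confetti YFP and 16.2 in 2 weeks RFP library 1. Plaur ranged from 0.545 to 7.18 CPM there and Procr from 0.204 to 1.95. Thbs1 was counted more widely there, from 47.8 to 184 CPM, with 117 in 4 days RFP library 1. Primed AT2-like cells, named from Lcn2, Lrg1 and other markers, had F3 at 1.28 to 5.18 CPM. A cluster of them held 2388 cells of 4 days YFP library 2 against 5 of library 1. Thbs1 was instead highest in a cluster led by Fosb and Atf3, at 425 CPM in 2 weeks RFP library 1, 308 in 2 weeks YFP library 1 and 561 in 4 days RFP library 1. With DATP-like, Meg3 and Kng2-led and Gzme and Spp1-led cells left out, F3 went from 217 to 20.8 CPM in 2 weeks RFP library 1, from 173 to 6.94 in 4 days RFP library 2 and from 549 to 76.9 in 2 weeks RFP library 2, of which 240 cells (8.65%) were left. Plaur went from 146 to 33.3 CPM in 2 weeks RFP library 1 from 205 to 20.8 in 4 days RFP library 2 and from 184 to 99.7 in 2 weeks RFP library 2, against 0.835 and 2.19 in Confetti. Kng2 went from 38.9 to 26.7 and from 184.5 to 162 CPM in 2 weeks RFP libraries 1 and 2, with 50.1% and 90.6% of its UMIs left out.

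The F3, Procr and Plaur levels in wildtype YFP cells of 2 weeks came from few cells, unlike that of Thbs1, whose 4019 UMIs in 2 weeks YFP library 1 were spread over 1401 of 4224 cells. In 2 weeks YFP library 2 the 28 DATP-like cells, 2.78% of the library, held 95.8% of F3, 99.3% of Procr and 76.2% of Plaur UMIs, and the 3 cells with the most Procr UMIs held at least 50% of them, with 101 in 1 cell. In 2 weeks YFP library 1 the 11 DATP-like cells held 50.5% of F3 and 83.5% of Procr UMIs, and 86 of 139 Procr UMIs came from 1 cell. Another 10 cells there, of the Gzme and Spp1-led cluster, held 30% of Plaur UMIs. In 2 weeks YFP library 2, 32 Meg3 and Kng2-led cells held 43.2% of Kng2 UMIs. The genotype of these YFP cells was not tested beyond their colour. In 2 weeks RFP library 2, by comparison, 89 cells were needed to reach 50% of the F3 UMIs.

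Other cell types carried several of the genes, so their markers were read in the alveolar sums. Endothelial, immune and mesenchymal lists summed to 16.7 to 39.7, 2.33 to 12.7 and 22.7 to 117 CPM in a library's alveolar cells, with Pecam1 at 0.450 to 3.74, Ptprc at 0.0972 to 0.557 and Col1a1 at 0 to 0.336. The macrophage list summed to 0.363 and 11.3 CPM in 4 days RFP libraries 1 and 2, 6.54 and 19.4 in 2 weeks RFP and 0.583 to 9.001 in the Confetti and YFP libraries, with Marco at 0 to 0.362. The platelet list summed to 21.2 to 129 CPM, nearly all of it Pf4, which stood at 58.9 to 126 in the RFP libraries of Red2Kras mice and 19.0 to 24.1 in their YFP libraries. The mesothelial marker Msln stood at 41.4 and 63.7 CPM in 2 weeks RFP, 45.4 in 4 days RFP library 2 and 2.13 in library 1, against 0.0642 to 11.8 in the Confetti and YFP libraries. Red blood cell markers summed to 287.7 to 770.2 CPM in the Red2Kras libraries numbered 1, 0.216 to 119 in those numbered 2 and 71.6 and 339.8 in Confetti, so they moved with the replicate number, as did Thbs1 at 2 weeks. The part of these lists in the results was not tested. When cells of every type that passed the filters were summed, Thbd changed sign against YFP at both times (-1.04 at 4 days and -1.01 at 2 weeks), and discarded cells held 41.3% to 100% of a library's Thbd UMIs. For Plaur discarded cells held 4.82% and 33.1% of UMIs in 2 weeks RFP and 70.5% to 96.9% in YFP libraries of Red2Kras mice, while for F3 they held 0.244% to 34.1% over all libraries.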

How the data were processed

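Single-cell libraries of sorted EpCAM+ RFP+ or YFP+ lung cells were deposited by the authors as raw UMI counts per gene and cell, made with Cell Ranger on GRCm38 (3.1.0 in the submitters' notes, 5.0.1 in the file headers). Cells with at least 1000 genes, at most 50000 UMIs and at most 15% mitochondrial UMIs were kept. They were clustered with scanpy 1.11.5 (30 components, 20 neighbours, resolution 0.8) with the 9 genes left out of the variable genes and no integration of libraries. Clusters were named from marker lists or else by their leading genes, and non-alveolar clusters were set aside. Predicted doublets were kept in the main results and left out in an alternative. Counts of alveolar cells were summed per library. Groups were compared with edgeR 4.0.16 (R 4.3.3), using TMM scaling, its filter on low counts, the quasi-likelihood test and Benjamini-Hochberg adjustment over all genes at 0.05. DESeq2 1.42.0 and the other alternatives are in the closing section. The procedure was tested on simulated data. CPM are TMM-scaled for library sums and plain for clusters.

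The labels do not say whether libraries with the same number came from the same lungs. Deviations of same-numbered RFP and YFP libraries from their group means correlated at r = 0.55 (4 days) and r = 0.68 (2 weeks) over 7122 genes, so a fit with the pair as a block stands beside the results it changes. Where nothing says that replicates are separate mice, p-values measure only the spread between these libraries. Named genes were the 9 genes and, from each further list, genes that were called or had one of the 2 smallest p. The genes and lists were chosen with earlier results of these data known. A few items are not reported here.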

Additional observations from a re-analysis of the deposited data

Results flagged for a closer look

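Cells set aside as non-alveolar, which the main comparisons did not use, carried several of the genes. At all UMIs, Thbd was counted in 75.6% and Tfpi in 21.8% of discarded endothelial cells, Plaur in 73.0% of discarded immune cells and Thbs1 in 58.1% of discarded mesenchymal cells, each above the share in Confetti alveolar cells.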

How the results depend on the processing

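Counts here are of the genes that each fit tested, at an adjusted p under 0.05 in edgeR unless named otherwise. The main fits tested 8 of the 9 genes, and 7 over both times. With no filter on low counts Tfpi was tested as well. Over 47 log2 fold changes, 933 of 947 alternative values kept their sign. The 47 were picked for reporting and are not all estimates of these genes. None is from 4 days YFP against Confetti, and other comparisons lack several genes. The share therefore does not describe every gene and comparison. RFP against YFP at 4 days gave 0 and became 3 with DESeq2, 6 with no filter on low counts (2.38% of genes), 4 with the pair as a replicate block and 0 to 2 leaving out single libraries. At 2 weeks 0 became 7 with no filter (6.61%) and 7 with the pair block. Over both times 0 became 4 with DESeq2, 7 with no filter (9.42%), 1 when thinned (0.396%), 4 with the number as a replicate block (7.03%), 6 with the pair block, 4 without both 4 days libraries numbered 1 (9.64%) and 0 to 5 leaving out single libraries. For 2 weeks RFP against Confetti 3 became 7 with DESeq2, 8 with no filter (15.5%), 5 when thinned (4.24%), 0 with all filtered cells (0% of genes), 0 with every barcode (0.00653%), 7 without both 4 days libraries numbered 1 (12.4%) and 0 to 7 leaving out single libraries. For 4 days RFP against Confetti 0 became 3 with DESeq2, 8 with no filter (3.9%), 4 without both 4 days libraries numbered 1 (2.61%) and 0 to 4 leaving out single libraries. With no filter the counts were 5 (2.54%) for 2 weeks YFP and 1 (0.643%) for 4 days YFP against Confetti, 3 (3.35%) for RFP and 4 (0.906%) for YFP between times and 3 (0.24%) for the interaction. DESeq2 gave 1 for 2 weeks YFP against Confetti and for RFP and YFP between times. The sign of the log2 fold change turned for Thbd with all filtered cells and every barcode, to -1.04 and -0.89 at 4 days, -1.01 and -1.07 at 2 weeks and -1.01 and -1.11 for 2 weeks RFP against Confetti. Kng2 at 4 days was -0.30 thinned, -0.21 without RFP library 2 and -0.28 without YFP library 1, and Plat at 4 days was -2.65 without RFP library 2, where leaving out single libraries gave at most 1.22 for Kng2 and 10.96 for Plat. Thbs1 at 2 weeks was -0.011 with cells kept by a marker rule, -1.15 without RFP library 1 and -0.67 without YFP library 2, and -0.32 against Confetti without RFP library 1, where leaving out single libraries gave at most 1.61 and 1.52. Against Confetti, F7 was 2.43 and 2.47 with all filtered cells and every barcode, and Ace -0.027 with every barcode. The causes were not tested. Few UMIs on the low side limit the ratios of Thbd and Plat, and Tfpi had too few for a test.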
